A study of Homo sapiens with 30 samples.

Results

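Soshiho-tang and Okbyeongpung-san are multi-herb formulas of East Asian medicine, and their ethanol extracts were set against each other here at the top dose, 500 µg/mL, in A549 cells. Soshiho-tang is traditionally built around bupleurum root with scutellaria, pinellia, ginseng, jujube, licorice and ginger, and Okbyeongpung-san around astragalus, atractylodes and saposhnikovia, although the labels give neither recipe. A549 is an established epithelial line from a human lung adenocarcinoma. Gene expression was measured by RNA sequencing after 24 h of treatment. The libraries were chosen by name and dose, not by any measured value: 5 of the 30 libraries of the series, with 3 of Soshiho-tang at 500 µg/mL (replicates 1, 2 and 3) and 2 of Okbyeongpung-san at 500 µg/mL (replicates 2 and 3). The 100 and 20 µg/mL groups (3 libraries of Soshiho-tang and 2 of Okbyeongpung-san at each dose) and 3 libraries of DMSO vehicle are given beside them. Nothing in the labels says whether replicates came from separate cultures, so the p-values measure a spread between replicate libraries, which may be technical. That spread was estimated over the 27 libraries of the 10 replicated groups of the series, another extract, Yijin-tang, included. It is not the spread of the 5 compared libraries alone.

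Several of the responses read below have well known circuits. In the integrated stress response, kinases that sense unfolded protein, amino acid shortage, viral RNA or heme deficiency phosphorylate the translation factor eIF2 alpha, which lowers general protein synthesis while the transcription factor ATF4 is made and switches on genes of amino acid supply, tRNA charging and cell fate. The cytosolic heat shock response, under HSF1, instead supplies chaperones of the HSP70 and HSP90 families. The aryl hydrocarbon receptor is a ligand-activated transcription factor that many plant compounds bind, with CYP1A1, CYP1B1 and TIPARP among its classical targets.

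Values are in CPM (a gene's counts relative to the TMM-scaled total of its library), given per library or as mean ± SD, and fold changes are Soshiho-tang 500 over Okbyeongpung-san 500 on the log2 scale with their standard error. A gene is called where edgeR's quasi-likelihood test, fitted across all 17459 genes tested, gave a Benjamini-Hochberg adjusted p under 0.05. The 3 Soshiho-tang libraries held 25008921, 27484808 and 29566215 counts, and the 2 Okbyeongpung-san libraries 38008449 (replicate 2) and 27540403 (replicate 3). The epithelial keratins KRT8 (2600 to 3473 CPM before TMM scaling), KRT18 and KRT7 were abundant in all 5 libraries, while the surfactant gene SFTPC and the lung lineage factor NKX2-1 lay at or under 0.12 CPM, and PTPRC, PECAM1 and ALB, markers of leukocytes, endothelium and hepatocytes, reached at most 0.135 CPM. Other markers were not so low. The 14 hepatocyte genes, fibrinogen chains among them, summed to 332 to 379 CPM with Soshiho-tang and 516 to 541 CPM with Okbyeongpung-san. The 8 immune genes summed to 13.0 to 17.9 and 13.4 to 22.3 CPM, and the fibroblast gene COL1A1 read 16.5 to 26.0 CPM.

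One library stood apart. The counts of the 2 Okbyeongpung-san 500 libraries differed by a chi-square of 40.2 per degree of freedom, against 2.79 and 2.69 for the same replicates at 100 and 20 µg/mL and 3.54 to 5.75 among the Soshiho-tang 500 libraries; pairs of the other replicated groups ran from 1.99 to 18.02. Mitochondrially encoded mRNAs took 9.89% of the counts in Okbyeongpung-san replicate 2 and 6.73% in replicate 3, against 6.68% to 7.29% in the Soshiho-tang libraries and 10.5% to 10.9% in vehicle. Before TMM scaling, MT-ATP8 stood at 1710 CPM in replicate 2 and 404 CPM in replicate 3, NDUFB1 at 37.1 and 62.3 CPM, and TUBA1B-AS1 at 1.68 and 0.0726 CPM. In vehicle these genes ran at 1578 to 2021, 26.96 to 29.1 and 22.2 to 53.4 CPM, so on each of them replicate 2 lay on the vehicle side of replicate 3. The 20 µg/mL libraries of both extracts ran at 388 to 558, 64.2 to 70.7 and 0.0381 to 0.198 CPM. Vehicle thus stood apart from the low-dose libraries too, for a reason that was not tested. No extract was tested against vehicle, so levels given beside vehicle are descriptive. The titles also give replicate 2 the batch letter E, shared with every Soshiho-tang library, and replicate 3 the letter D, here and at the lower doses; the part of the batch in the gap was not tested. Whether replicate 2 is the library its label names was not tested either, so every fold change that uses it carries that doubt. The first number of the library names is 14 for Okbyeongpung-san and 15 for Soshiho-tang, so extract and whatever that number stands for cannot be told apart at a single dose. The comparison at 500 µg/mL was therefore repeated without replicate 2 and without replicate 3.

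The 2 extracts differed in many genes at 500 µg/mL. Of the 17459 genes, 3263 (18.7%) were called, 1595 (9.14%) higher and 1668 (9.55%) lower with Soshiho-tang, but most differences were small: 105 of the higher and 74 of the lower genes reached 2-fold, and the median size among called genes was 0.36 on the log2 scale either way. Without Okbyeongpung-san replicate 2 the counts were 663 higher and 572 lower, and without replicate 3 they were 2661 and 2745. The genes called in the same direction in all 3 fits numbered 483 higher (2.77% of genes) and 357 lower (2.04%). A fit of only the 5 libraries, which estimates the spread from them alone, called 376 higher (2.28% of 16522 genes) and 232 lower (1.4%). At 100 µg/mL edgeR called 0 genes between the extracts (0.0%; 821 had an unadjusted p under 0.05, and DESeq2 called 3), and at 20 µg/mL it called 3 (0.0172%), all targets of the aryl hydrocarbon receptor.

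**Figure D1:**
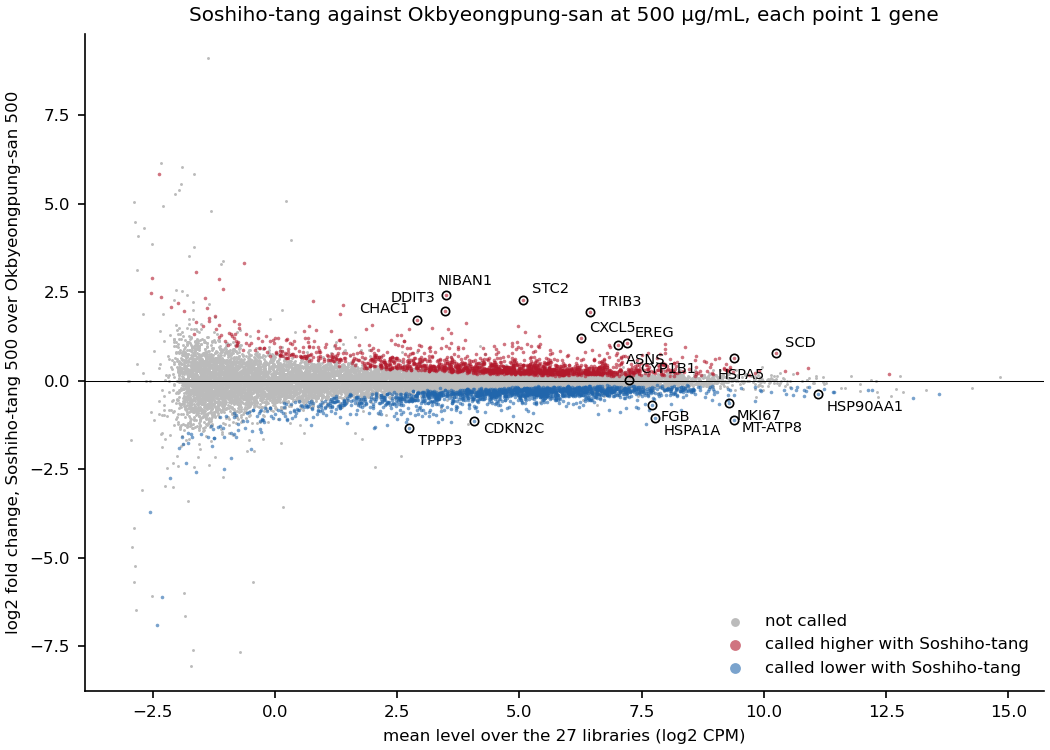
Each point is 1 of 17459 genes, with its mean level over the 27 libraries of the fit (log2 CPM) on the horizontal axis and the log2 fold change of Soshiho-tang 500 over Okbyeongpung-san 500 on the vertical axis. Red and blue points are the 1595 genes called higher and the 1668 called lower; NIBAN1, STC2, DDIT3 and TRIB3 lead the well expressed genes above the line, and TPPP3, CDKN2C and HSPA1A lie near or below -1.

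Genes of the integrated stress response had the highest median difference of the 36 lists with 3 or more measured members. Of 19 measured members of a 20-gene list, 17 were called higher with Soshiho-tang and 0 lower, where 9.14% of all genes were called higher, and the median log2 fold change was 1.00 against 0.00 over all genes. All 3 Soshiho-tang libraries lay above both Okbyeongpung-san libraries for 17 members (19.1% of all genes did so), and 15 were called higher in all 3 fits. The list itself was written with earlier results on these data known.

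STC2, a secreted glycoprotein that rises under endoplasmic reticulum stress, read 107, 128 and 132 CPM with Soshiho-tang and 25.6 and 24.4 CPM with Okbyeongpung-san. The log2 fold change was 2.29 ± 0.07 (adjusted p = 1.51e-16, edgeR), and vehicle held 20.7 ± 1.24 CPM (SD, n = 3), so that every Soshiho-tang library lay above both other groups. The gene lies at chr5:173314713-173329503, minus strand (GRCh38, GENCODE 29). NIBAN1, a stress-induced regulator of translation, was at 37.8, 47.3 and 52.95 against 7.703 and 9.67 CPM, a log2 fold change of 2.42 ± 0.15. DDIT3 (chr12:57516588-57521737, minus strand) encodes CHOP, the ATF4-induced transcription factor that promotes death under prolonged stress. Its libraries read 27.9, 38.4 and 33.8 CPM with Soshiho-tang and 8.64 and 8.23 CPM with Okbyeongpung-san, and vehicle 8.42 ± 0.889 CPM. TRIB3, a pseudokinase that CHOP and ATF4 induce, gave 248, 274 and 248 against 73.9 and 60.1 CPM (log2 1.94 ± 0.10, adjusted p = 1.49e-12, edgeR). In none of these genes did a Soshiho-tang library come within 2-fold of an Okbyeongpung-san library.

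The remaining effectors followed with smaller differences. CHAC1, which degrades glutathione, differed by 1.73, SESN2, a leucine sensor that restrains mTORC1, by 1.62, ATF3, a transcription factor downstream of ATF4, by 1.47, and PPP1R15A, the phosphatase subunit that reverses eIF2 alpha phosphorylation, by 1.04 on the log2 scale. ATF4 itself, controlled chiefly at translation, was only 0.31 higher and lost its call without Okbyeongpung-san replicate 3, at 0.13. CEBPB (-0.10) and CTH (-0.09) were not called. Set against each extract's own 20 µg/mL libraries, 18 of the 19 members were called higher and 1 lower with Soshiho-tang at 500 (10.3% and 10.2% of all genes), and 2 higher and 0 lower with Okbyeongpung-san (0.979% and 0.613%). At 100 µg/mL STC2 read 23.6 ± 0.198 with Soshiho-tang (SD, n = 3) and 19.5 ± 0.0922 CPM with Okbyeongpung-san (SD, n = 2), and DDIT3 7.801 ± 0.681 and 8.66 ± 0.0992 CPM, neither gene being called. The STC2 libraries did not overlap at 100 µg/mL (log2 0.28 ± 0.08, adjusted p = 0.906, edgeR). At that dose 1954 of the 17459 genes had all Soshiho-tang libraries above both Okbyeongpung-san libraries, so this separation is common. The 2 members called higher with Okbyeongpung-san 500 than with its 20 µg/mL were STC2, by 0.46 ± 0.08, and ASNS, by 0.29 ± 0.07.

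ATF4 and its C/EBP partners bind composite elements with the core TGATGNAA. Printed here are the 250 bases before the annotated start of 3 genes that were higher with Soshiho-tang and hold that core, from RefSeq's promoter table (GRCh38.p14), with the element in capitals. ASNS (chr7:97872409-97872658, minus strand) has it 68 bases before the start on the printed strand, and CHAC1 (chr15:40953221-40953470, plus strand) and HERPUD1 (chr16:56931892-56932141, plus strand) have it in reverse complement, 209 and 176 bases before the start.
ASNS: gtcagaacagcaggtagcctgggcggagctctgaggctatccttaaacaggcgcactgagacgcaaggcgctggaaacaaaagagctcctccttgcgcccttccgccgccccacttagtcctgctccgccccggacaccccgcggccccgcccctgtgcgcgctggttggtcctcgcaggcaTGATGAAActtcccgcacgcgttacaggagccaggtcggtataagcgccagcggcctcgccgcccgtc
CHAC1: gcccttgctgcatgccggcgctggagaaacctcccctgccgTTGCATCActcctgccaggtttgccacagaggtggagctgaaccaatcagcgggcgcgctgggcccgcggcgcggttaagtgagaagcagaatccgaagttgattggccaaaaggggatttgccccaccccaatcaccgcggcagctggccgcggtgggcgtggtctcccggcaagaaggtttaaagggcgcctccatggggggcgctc
HERPUD1: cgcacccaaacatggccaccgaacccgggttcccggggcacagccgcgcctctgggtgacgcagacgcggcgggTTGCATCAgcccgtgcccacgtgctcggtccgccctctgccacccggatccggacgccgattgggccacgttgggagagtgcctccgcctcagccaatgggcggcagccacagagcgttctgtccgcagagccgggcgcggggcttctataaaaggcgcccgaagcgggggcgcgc
Over 300-base windows of RefSeq's table (250 bases before the start and 50 after it, both strands), matched by symbol for 11865 of the genes tested, TGATGNAA was present in 1.7%. It was present in 3.61% of the windows of genes called higher (45 of 1246), in 12.9% of those higher by 2-fold or more (9 of 70) and in 1.41% of those called lower. Of the 16 windows matched to the integrated stress response list, 3 held it (ASNS, ATF3 and CHAC1). A match is a run of letters, not evidence of binding.

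**Figure D2:**
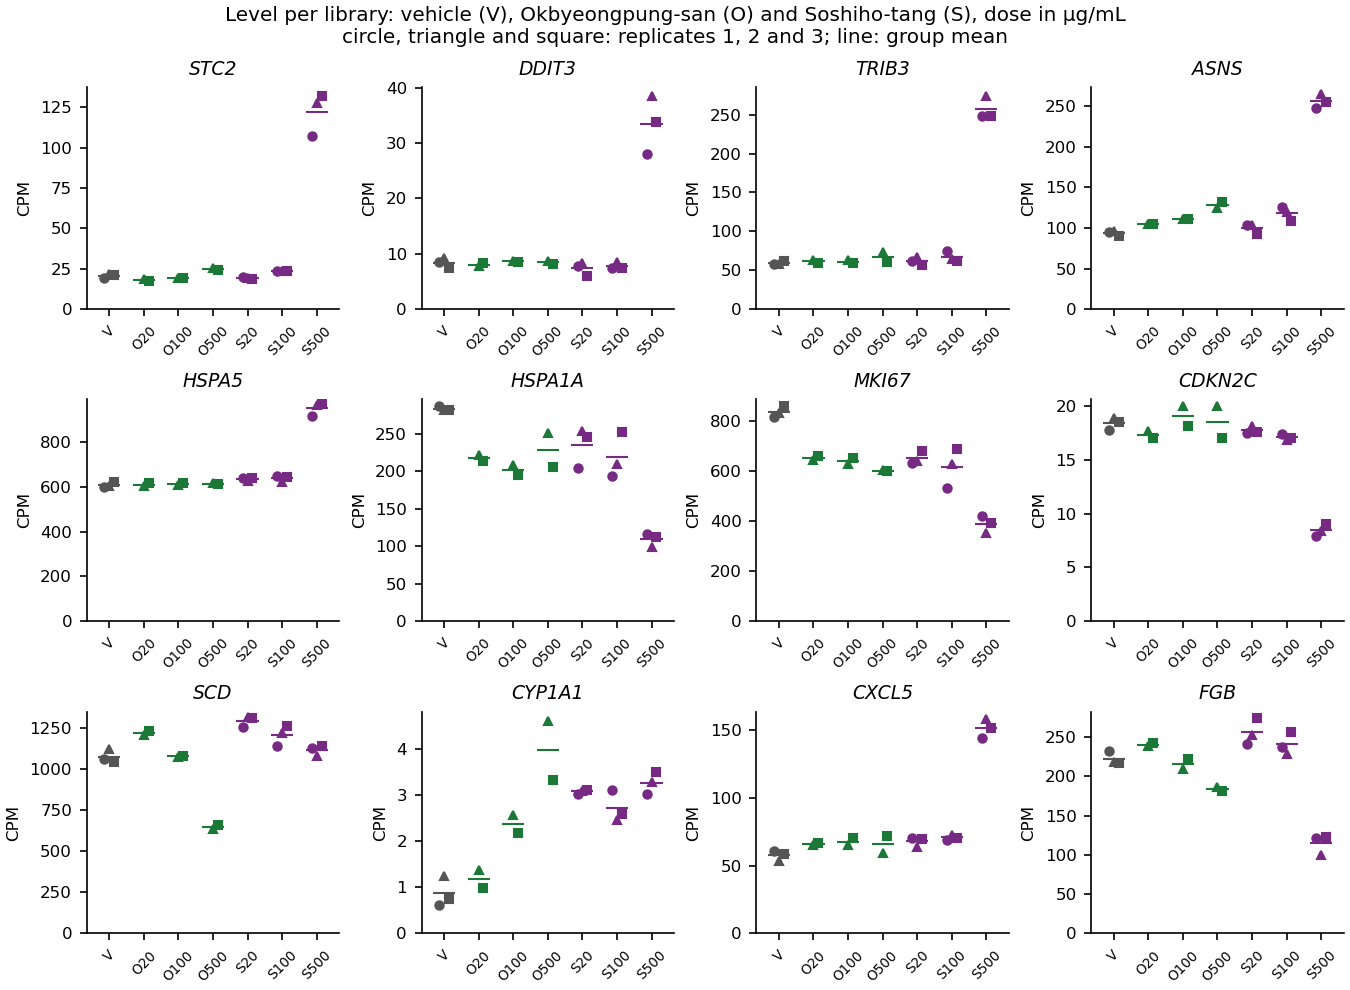
Level in CPM of 12 genes in every library of vehicle (V), Okbyeongpung-san (O) and Soshiho-tang (S) at 20, 100 and 500 µg/mL, with the replicate shown by the marker and the group mean by the line; axes start at 0. STC2, DDIT3, TRIB3, ASNS, HSPA5 and CXCL5 are set apart by the Soshiho-tang 500 libraries, SCD by the Okbyeongpung-san 500 libraries, and CYP1A1 is already near 3 CPM in the Soshiho-tang 20 libraries.

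Genes of amino acid supply and tRNA charging were also higher. Of 16 genes of amino acid synthesis and transport, 12 were called higher and 0 lower (median log2 fold change 0.64), against 9.14% of all genes higher, and all 12 were called in all 3 fits, against 2.77% of all genes. ASNS, asparagine synthetase, read 248, 265 and 256 CPM with Soshiho-tang and 125 and 132 CPM with Okbyeongpung-san, a log2 fold change of 1.00 ± 0.06 (adjusted p = 1.03e-10, edgeR), and vehicle 93.96 ± 3.33 CPM. ALDH1L2 and MTHFD2, of mitochondrial folate metabolism, were at 71.7, 74 and 81.9 against 22.04 and 30.6 CPM and 452, 457 and 449 against 203 and 241 CPM. In serine synthesis PHGDH (0.82), PSAT1 (0.95) and PSPH (0.47) were all called higher, as were CBS (1.09), which opens transsulfuration, and the neutral amino acid carrier SLC1A4 (0.99). The large neutral transporter pair SLC7A5 (0.14) and SLC3A2 (0.16) was not called.

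Among 20 cytosolic tRNA synthetases 12 were called higher and 0 lower, 11 of them in all 3 fits (9.14% and 2.77% of all genes were higher by these rules). GARS1, which charges glycine tRNA, read 351, 364 and 378 CPM against 219 and 212 CPM (log2 0.76 ± 0.06), and AARS1, for alanine, 475, 490 and 501 against 324 and 293 CPM (log2 0.66 ± 0.06). CARS1 (0.64), SARS1 (0.59), IARS1 (0.56) and WARS1 (0.54) followed. The 8 others, among them QARS1 (0.00), KARS1 (-0.03) and HARS1 (-0.14), were not called. Without Okbyeongpung-san replicate 3, FARSA moved from -0.20 to -0.38, VARS1 from -0.09 to -0.22 and HARS1 to -0.21.

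The called genes of the endoplasmic reticulum list and of the heat shock list differed in opposite directions. Of 18 endoplasmic reticulum genes 10 were called higher and 0 lower (median 0.20), 5 of them in all 3 fits, whereas of 16 heat shock chaperones 0 were called higher and 12 lower (median -0.31), 8 of them in all 3 fits, against 9.14% and 9.55% of all genes. In the fit of only the 5 libraries 5 and 6 were called. HSPA5 encodes BiP, the main HSP70 of the endoplasmic reticulum, and read 916, 963 and 972 CPM with Soshiho-tang and 616 and 613 CPM with Okbyeongpung-san (log2 0.63 ± 0.05, adjusted p = 6.98e-10, edgeR), with vehicle at 608 ± 10.6 CPM. HERPUD1, of the degradation machinery whose promoter is printed above, was at 61.4, 70.1 and 71.2 against 34.5 and 34.5 CPM. DNAJB9, a co-chaperone of BiP, differed by 0.92 ± 0.10 and XBP1, the transcription factor spliced by IRE1, by 0.74 ± 0.09. The list did not rise as a whole: HSP90B1 (0.13), DNAJB11 (0.105), MANF (0.07), PDIA4 (-0.005), SDF2L1 (-0.14) and CRELD2 (-0.19) were not called. Among lectin chaperones CANX (0.27) was called higher and CALR (-0.15) was not, and among disulfide isomerases PDIA6 (0.14) was called and PDIA3 (0.07) was not; CANX lost its call without Okbyeongpung-san replicate 2 and PDIA6 without either replicate.

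HSPA1A, the stress-inducible cytosolic HSP70, read 116, 99.3 and 113 CPM with Soshiho-tang and 251 and 206 CPM with Okbyeongpung-san, a log2 fold change of -1.06 ± 0.13 (adjusted p = 3.14e-06, edgeR). HSPA1B, its near-identical neighbour, gave 76.6, 66.4 and 78.8 against 155 and 118 CPM, and reads of the pair may be split between them, so neither value stands alone. HSP90AA1, inducible cytosolic HSP90, was at 1589, 1520 and 1609 against 2025 and 2071 CPM (log2 -0.38 ± 0.05). The levels in vehicle were 283 ± 2.96 CPM for HSPA1A and 2743 ± 4.92 CPM for HSP90AA1, above both extracts at 500 µg/mL. HSPA1A also read below vehicle at 20 µg/mL, at 235 ± 26.9 CPM with Soshiho-tang (SD, n = 3) and 218 ± 6.34 CPM with Okbyeongpung-san (SD, n = 2). An effect of the low dose cannot be told apart here from whatever sets vehicle apart. BAG3, a co-chaperone of HSP70 (log2 -0.33 without Okbyeongpung-san replicate 2), differed by -0.50 on the log2 scale, while HSPB1 (-0.44 in all libraries) moved to -0.08 without Okbyeongpung-san replicate 2 and was then not called. The lens and muscle small heat shock protein CRYAB, outside this list, stood at 3.15, 3.18 and 3.95 against 7.89 and 6.64 CPM.

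Genes of DNA replication and mitosis were lower with Soshiho-tang. In the replication list 19 of 26 members were called lower and 0 higher (median -0.30), and in the mitosis list 20 of 26 lower and 0 higher (median -0.27); 10 members of each were called in all 3 fits, and 9.55% of all genes were called lower. Most of these calls were lost in the fit of only the 5 libraries, which called 5 of 26 replication and 6 of 26 mitosis genes lower, with medians of -0.31 and -0.27. MKI67, the proliferation marker Ki-67, read 419, 352 and 393 CPM with Soshiho-tang and 602 and 600.2 CPM with Okbyeongpung-san (log2 -0.63 ± 0.10, adjusted p = 0.000111, edgeR). Vehicle stood at 836 ± 22.3 CPM, above every library of either extract at 500 µg/mL. At 20 µg/mL MKI67 also read below vehicle, at 650 ± 26.8 CPM with Soshiho-tang (SD, n = 3) and 653 ± 10.8 CPM with Okbyeongpung-san (SD, n = 2). Vehicle stood apart from these libraries on other genes as well, so these levels cannot be read as an effect of the low dose. From 20 to 500 µg/mL MKI67 differed by -0.75 ± 0.09 with Soshiho-tang and -0.12 ± 0.11 with Okbyeongpung-san, the latter not called. Between the extracts at 500 µg/mL, the kinesin KIF20A (-0.59 ± 0.09) and the kinases PLK1 (-0.54 ± 0.09) and AURKA (-0.43 ± 0.06) followed, while TOP2A (-0.11) and FOXM1 (-0.19) were not called. On the replication side FEN1, the flap endonuclease, was at 84.1, 78.6 and 74.4 against 121 and 109 CPM and RRM2, of ribonucleotide reductase, at 211, 199 and 216 against 258 and 292 CPM. In bulk RNA, fewer cells in a phase and less of a transcript in each cell cannot be told apart.

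Regulators of the G1 phase did not move as 1 block. CDKN2C, the CDK4 and CDK6 inhibitor p18, read 7.92, 8.36 and 9.06 CPM with Soshiho-tang and 19.97 and 16.98 CPM with Okbyeongpung-san (log2 -1.13 ± 0.08), and CCND3, cyclin D3, 101, 91.7 and 94.4 against 170.5 and 149.8 CPM (log2 -0.74 ± 0.07). CDKN1A, the inhibitor p21, was higher at 106, 109 and 118 against 89.5 and 75.5 CPM (log2 0.43 ± 0.08, adjusted p = 0.00057, edgeR). CCND1, cyclin D1, gave 426, 396 and 417 against 418 and 416 CPM and was not called (log2 -0.02 ± 0.04). Of 20 p53 targets 12 were called higher and 0 lower (median 0.28; 9.14% of all genes were higher), 5 in all 3 fits and 4 in the fit of only the 5 libraries. The leading members also belong to stress pathways: PMAIP1 (NOXA, 0.95) and TNFRSF10B (the death receptor DR5, 0.70) promote apoptosis, and GDF15 (0.89) is a secreted stress hormone. MDM2 (0.38) and DDB2 (0.13) were not called.

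Neutrophil-attracting chemokines and ligands of the EGF receptor were higher with Soshiho-tang. From 16 measured inflammatory and NF-kappa-B targets 9 were called higher and 1 lower (median 0.49), 6 and 1 of them in all 3 fits, where 9.14% of all genes were higher and 9.55% lower, and 2.77% and 2.04% in all 3 fits. CXCL5 read 144, 158 and 151 against 59.4 and 72.1 CPM (log2 1.20 ± 0.09, adjusted p = 5.51e-10, edgeR), and CXCL8, interleukin 8, gave 3.07, 4.23 and 5.39 against 1.24 and 1.69 CPM (log2 1.55 ± 0.25). CXCL2 (1.46), CXCL3 (1.12) and CXCL1 (1.08) were called higher too. The feedback inhibitors of NF-kappa-B, NFKBIA (-0.04) and TNFAIP3 (-0.14), were not called, and CCL2, which attracts monocytes, was lower (-0.60).

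Of 15 EGF receptor ligands and MAPK feedback genes 10 were called higher and 0 lower (median 0.45), 7 in all 3 fits and 6 in the fit of only the 5 libraries. Over all genes 9.14% were called higher and 9.55% lower, the shares to set beside this and the smaller lists that follow. EREG, epiregulin, read 250.5, 278 and 269 CPM with Soshiho-tang and 106 and 147 CPM with Okbyeongpung-san (log2 1.07 ± 0.10), and AREG, amphiregulin, was 0.54 higher. The MAPK phosphatases DUSP5 (0.58), DUSP1 (0.55) and DUSP6 (0.51; adjusted p = 0.0556 without Okbyeongpung-san replicate 2, edgeR) were called higher, and HBEGF (0.11) and SPRY4 (0.08) were not. Also called higher were CDCP1, a Src-linked surface protein, with a log2 fold change of 1.48, AKNA, a centrosomal protein, with 1.36, and ITGA2, an integrin that binds collagen, with 0.96. Lysosomal LAMP3, which also rises with unfolded protein, read 0.777, 1.06 and 1.405 against 0.215 and 0.211 CPM, while the 21-gene lysosome and autophagy list had 4 called higher and 5 lower. In the list of TGF-beta and matrix genes 6 of 17 were called higher and 1, COL1A1 (-0.43), lower, which fell to -0.28 without Okbyeongpung-san replicate 2 and was then not called (adjusted p = 0.269, edgeR). TSC22D3 (GILZ), a glucocorticoid-induced gene, gave 27.4, 28.1 and 30.8 against 10.1 and 10.9 CPM (log2 1.46 ± 0.10), but the 9-gene glucocorticoid receptor list held only 2 called higher and 1 lower.

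Lower with Soshiho-tang were also the fibrinogen chains, BMP targets and part of the hypoxia genes. FGA, FGB and FGG, which A549 cells express although fibrinogen is a liver protein, differed by -0.65 ± 0.05, -0.68 ± 0.08 and -0.50 ± 0.06, and all were called in all 3 fits. FGB read 121, 100.5 and 122.6 CPM with Soshiho-tang, 186 and 181 CPM with Okbyeongpung-san and 223 ± 8.93 CPM in vehicle. Both extracts were below their own 20 µg/mL libraries, with log2 changes of -1.16 ± 0.07 with Soshiho-tang and -0.39 ± 0.09 with Okbyeongpung-san, and the difference between these changes was -0.77 ± 0.11 (adjusted p = 9.38e-05, edgeR). Of 10 BMP and ID genes 7 were called lower and 1 higher (3 and 1 in all 3 fits and also in the fit of only the 5 libraries), against 9.55% and 9.14% of all genes. ID4, an inhibitor of basic helix-loop-helix factors, differed by -0.57 and BAMBI, a decoy receptor, by -0.51, whereas GREM1, a secreted BMP antagonist, was 0.94 higher.

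Hypoxia-inducible factor targets split. Of 18, 5 were called lower and 2 higher, the latter close to the 9.14% of all genes called higher (9.55% were lower). EGLN3, a prolyl hydroxylase that HIF induces, read 5.75, 5.15 and 6.36 CPM with Soshiho-tang against 12.8 and 11.3 CPM with Okbyeongpung-san, and CA9, carbonic anhydrase IX, 1.79, 1.24 and 1.34 against 3.11 and 2.78 CPM. VEGFA, which HIF and ATF4 both induce, was higher, at 52.7, 62.3 and 63.1 against 34.4 and 33.3 CPM (log2 0.81 ± 0.07), and PDK1 (0.05) and SLC2A1 (-0.14) were not called. The other genes furthest down among well expressed ones were TPPP3, a tubulin polymerization promoting protein, at 3.496, 3.46 and 3.31 against 9.93 and 7.24 CPM (log2 -1.34 ± 0.12), RASL11A (-1.33), a Ras-like protein, BCAS1 (-1.17), PCSK1N (-1.17), an inhibitor of a prohormone convertase, NECAB2 (-1.07) and the nucleoside and monoamine transporter SLC29A4 (-1.01; -0.63 without Okbyeongpung-san replicate 2, still called). C4orf48 (-1.31) was not called without Okbyeongpung-san replicate 3 (-1.06). AKR1B15 belongs to the same 12 by size (-1.16), but its Okbyeongpung-san libraries read 16.1 and 5.87 CPM, and without replicate 2 the value was -0.23 (adjusted p = 0.569, edgeR).

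Several genes of lipid synthesis were lowest with Okbyeongpung-san at 500 µg/mL. SCD, the desaturase that makes oleate, read 1129, 1079 and 1136 CPM with Soshiho-tang and 634 and 662 CPM with Okbyeongpung-san (log2 0.78 ± 0.06, adjusted p = 1.16e-09, edgeR), and vehicle 1072 ± 42.2 CPM. Against its own 20 µg/mL, SCD differed by -0.91 ± 0.06 with Okbyeongpung-san and -0.21 ± 0.05 with Soshiho-tang, and the difference between the changes was 0.70 ± 0.08 (adjusted p = 5.31e-06, edgeR). INSIG1, which holds SREBP precursors in the endoplasmic reticulum, stood at 36.5, 32.8 and 36.5 against 22.3 and 22.3 CPM, and STARD4, a cholesterol carrier, at 29.8, 26.3 and 29.04 against 15.2 and 19.7 CPM. Their changes from 20 to 500 µg/mL were -0.75 and -0.71 with Okbyeongpung-san and -0.22 and 0.01 with Soshiho-tang, and the differences between the changes were 0.54 (adjusted p = 0.00205, edgeR) and 0.72 (adjusted p = 0.000176, edgeR).

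Of 24 cholesterol genes 11 were called higher and 1 lower with Soshiho-tang than with Okbyeongpung-san (median 0.18; 9.14% and 9.55% of all genes), but only 4 and 0 were called in all 3 fits and 2 and 0 in the fit of only the 5 libraries. Within each extract, 10 members were called lower and 0 higher at 500 than at 20 µg/mL with Okbyeongpung-san (0.613% of all genes were lower; median -0.32), and 11 lower and 0 higher with Soshiho-tang (10.2% of all genes were lower; median -0.15). Both extracts thus carried lower members at 500 µg/mL. HMGCS1, an early enzyme of the pathway, fell by 0.76 with Okbyeongpung-san and by 0.41 with Soshiho-tang on the log2 scale. Of 13 fatty acid synthesis genes 6 were called higher with Soshiho-tang and 0 lower (9.14% of all genes were higher), 3 in all 3 fits: besides SCD these were ACSL3 (0.47), an acyl-CoA synthetase, and FADS1 (0.39), the delta-5 desaturase. FASN (-0.09), ACLY (-0.01) and SREBF1 (-0.04) were not called. PLIN2, a lipid droplet coat protein, was at 27.7, 28.96 and 31.8 against 20.8 and 19.8 CPM (log2 0.54 ± 0.08).

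The aryl hydrocarbon receptor targets CYP1A1, CYP1B1 and TIPARP were higher with Soshiho-tang at 20 µg/mL and were not called at 500 with both Okbyeongpung-san libraries. CYP1A1 read 3.04, 3.09 and 3.12 CPM in the Soshiho-tang 20 libraries and 1.37 and 0.982 CPM in the Okbyeongpung-san 20 libraries, against 0.872 ± 0.323 CPM in vehicle. The log2 fold change at 20 µg/mL was 1.39 ± 0.20 (adjusted p = 0.00362, edgeR). CYP1B1 differed by 0.64 ± 0.07 there, at 165 ± 3.09 CPM (SD, n = 3) against 106 ± 1.89 CPM (SD, n = 2), with vehicle at 101 ± 3.17 CPM, and TIPARP, an ADP-ribosyltransferase that limits the receptor, by 0.54 ± 0.09. In CYP1A1 and CYP1B1, Okbyeongpung-san 20 thus read near vehicle and Soshiho-tang 20 above both, although neither was tested against vehicle. At 500 µg/mL the libraries overlapped: CYP1A1 gave 3.03, 3.28 and 3.51 with Soshiho-tang and 4.62 and 3.34 CPM with Okbyeongpung-san (log2 -0.29 ± 0.16, adjusted p = 0.228, edgeR), and CYP1B1 179, 166 and 191 against 161 and 189 CPM (log2 0.03 ± 0.07). From 20 to 500 µg/mL CYP1A1 rose by 1.77 ± 0.21 with Okbyeongpung-san and differed by 0.09 ± 0.15 with Soshiho-tang, and the difference between these changes was -1.68 ± 0.26 (adjusted p = 0.000176, edgeR). Of the 9 list members measured, 4 were called in that test, CYP1A1, CYP1B1 (-0.61), TIPARP (-0.39) and the receptor's repressor AHRR, all with the larger rise under Okbyeongpung-san (3.73% of all genes were called with a negative difference), while 0 were called higher and 1, NQO1 (-0.16), lower at 500. At 100 µg/mL CYP1B1 read 147 ± 9.61 CPM with Soshiho-tang and 127 ± 2.73 CPM with Okbyeongpung-san and was not called (adjusted p = 0.979, edgeR).

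The receptor's response element has the core GCGTG. The 250 bases before the RefSeq start of CYP1A1 (chr15:74725529-74725778, minus strand, GRCh38.p14) hold it once, 57 bases before the start, in capitals here.
CYP1A1: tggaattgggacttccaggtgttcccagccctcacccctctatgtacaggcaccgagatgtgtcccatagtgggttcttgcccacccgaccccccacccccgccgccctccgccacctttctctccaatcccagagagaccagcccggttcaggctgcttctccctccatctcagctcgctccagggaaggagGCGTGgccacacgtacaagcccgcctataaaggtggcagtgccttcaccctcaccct
This core is short, and 49.9% of the 11865 windows hold it on either strand, with 54.4% of genes called higher and 49.6% of those called lower at 500 µg/mL. Of the other letters searched, TTTGAA, the core of the CHR element of mitosis genes, was in 9.9% of all windows and 16.4% of the windows of genes called lower in all 3 fits (46 of 281), and CCAAT in 36.1% and 45.9% (129 of 281). Over all genes called lower, TTTGAA was in 10.1%.

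**Figure D3:**
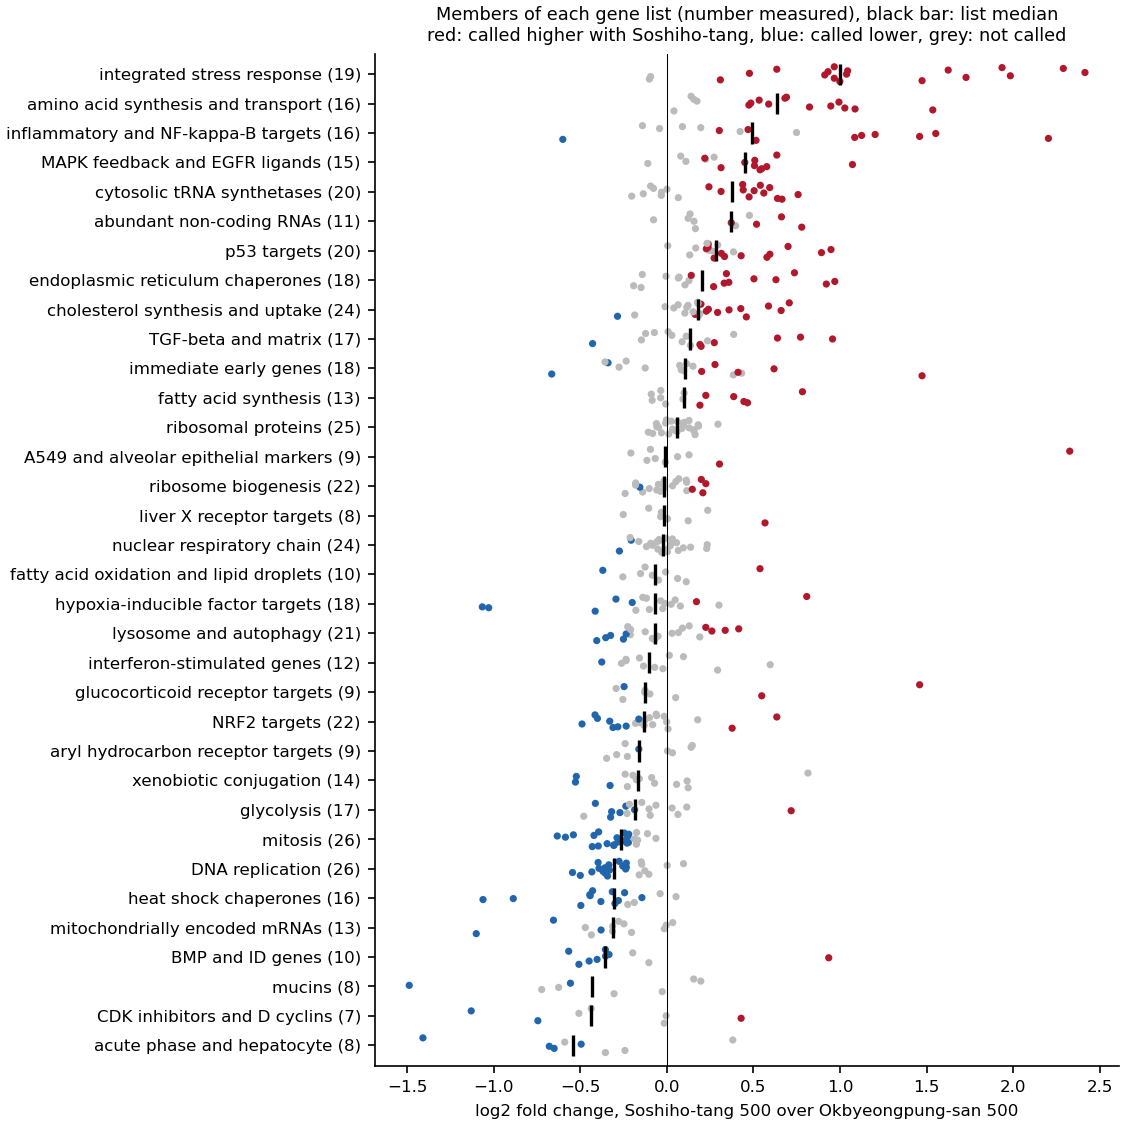
Log2 fold change of Soshiho-tang 500 over Okbyeongpung-san 500 for every measured member of the gene lists with at least 7 measured members, 1 list per line, ordered by the list median (black bar); red points were called higher, blue lower and grey not called. The integrated stress response, with a median of 1.00, is at the top, and the acute phase and hepatocyte list, with -0.54, at the bottom.

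Calls in several other groups depended on Okbyeongpung-san replicate 2. Of 22 NRF2 targets 8 were called lower and 2 higher, 3 and 1 in all 3 fits and 1 and 2 in the fit of only the 5 libraries. Over all genes 9.55% were lower and 9.14% higher, so the higher members were at the share of all genes. FTL, ferritin light chain, read 6612, 6812 and 7231 CPM with Soshiho-tang against 11190 and 8156 CPM with Okbyeongpung-san and moved from -0.49 to -0.24 without replicate 2 (adjusted p = 0.114, edgeR), while NQO1 (-0.16) was called lower only with both Okbyeongpung-san libraries (adjusted p = 0.0938 and 0.14 without replicate 2 and 3, edgeR) and HMOX1 (-0.13) was not called. HMOX1, heme oxygenase, was higher at 500 than at 20 µg/mL with both extracts, by 0.62 ± 0.06 with Soshiho-tang and 0.83 ± 0.07 with Okbyeongpung-san. Glycolysis had 6 of 17 called lower and 1 higher, 1 and 1 in all 3 fits and 0 in the fit of only the 5 libraries. ALDOA, aldolase, gave 1015, 963 and 940.3 against 1375 and 1062 CPM and was not called without replicate 2 (-0.13); HK1 was lower in all 3 fits and HK2 higher.

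The median difference of the mitochondrially encoded mRNAs changed sign with the Okbyeongpung-san library used. Of 13, 3 were called lower with both Okbyeongpung-san libraries, where 9.55% of all genes were lower. The median was -0.31 with both, 0.08 without replicate 2 and -0.61 without replicate 3. MT-ATP8, a subunit of ATP synthase, read 428, 457 and 609 CPM with Soshiho-tang and 1744 and 391 CPM with Okbyeongpung-san, so the 2 Okbyeongpung-san libraries lay on either side of the Soshiho-tang ones. The log2 fold change was -1.10 with both and 0.35 without replicate 2. The share of counts from these mRNAs differed between the extracts by -1.33 percentage points (two-sided exact permutation p = 0.6, where 3 against 2 libraries cannot give less than 0.2). Of 11 abundant non-coding RNAs 4 were called higher and 0 lower, 1 in all 3 fits: GAS5 (0.78), a host of small nucleolar RNAs. NEAT1 read 659, 799.8 and 612 against 408 and 557 CPM and was not called without replicate 2. The share of all genes called was 9.14% higher and 9.55% lower, and the groups that follow lay at or under it. Ribosomal protein genes gave 0 calls of 25 (median 0.06), nuclear respiratory chain genes 0 higher and 2 lower of 24, and interferon-stimulated genes 0 higher and 1 lower of 12.

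Some genes named above as not called were called with 1 library fewer: CALR, HARS1, FOXM1, SLC2A1, HMOX1 and CYP1A1 lower and MDM2 and TIPARP higher without Okbyeongpung-san replicate 3, and TOP2A lower without replicate 2. TIPARP's call for the dose difference was lost with most single libraries left out.

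The called genes also differed in composition. Median GC content of the longest annotated transcript was 43.6% in genes called higher and 57.3% in those called lower, against 48.6% over all genes tested, and median length 4264 and 3233 bases against 3181. Without Okbyeongpung-san replicate 2 the GC medians were 49.1% and 48.2%, and without replicate 3 they were 41.3% and 58.5%. With a trend of length and GC content taken out of each library, an alternative chosen after the data were seen, 1565 genes were called higher and 1646 lower. The integrated stress response list then had 17 called higher and 0 lower (median 1.02), the heat shock list 0 and 12 (median -0.36), the mitosis list 0 and 24 (median -0.32) and the tRNA synthetases 11 and 2 (median 0.30).

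**Figure D4:**
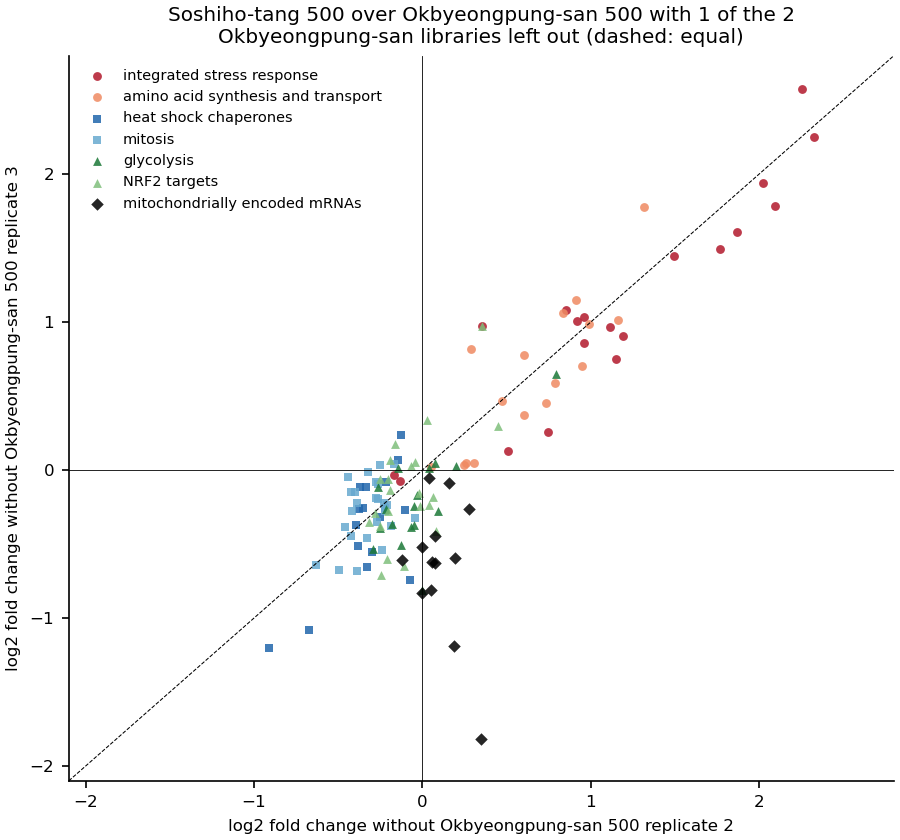
Log2 fold change of Soshiho-tang 500 over Okbyeongpung-san 500 for members of 7 gene lists, without Okbyeongpung-san replicate 2 (horizontal) and without replicate 3 (vertical), with a dashed line where the values are equal. Integrated stress response genes lie along the line up to above 2, while mitochondrially encoded mRNAs drop below it, MT-ATP8 to -1.82 without replicate 3 against 0.35 without replicate 2.

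Setting each extract against its own 20 µg/mL libraries leaves out any difference that goes with the first number of the library names at both doses alike. Soshiho-tang 500 differed from its 20 µg/mL in 3588 genes (20.6%), 1807 higher and 1781 lower, and Okbyeongpung-san 500 in 278 (1.59%), 171 higher and 107 lower. These counts rest on 3 against 3 libraries and on 2 against 2, so they do not measure the size of the 2 responses alike. An unadjusted p under 0.05 (edgeR) was reached by 5607 genes with Soshiho-tang and 3078 with Okbyeongpung-san. The difference between the 2 changes was called for 1224 genes (7.01%), 572 (3.28%) with a positive difference, meaning a greater rise or smaller fall under Soshiho-tang, and 652 (3.73%) with a negative one. By this test 14 of 19 integrated stress response genes, 11 of 16 amino acid genes and 10 of 20 tRNA synthetases had a positive difference and 0 a negative one. Of the heat shock chaperones 9 of 16, and of the replication and mitosis lists 6 and 11 of 26, had a negative difference and 0 a positive one. The values for NIBAN1 (2.38 ± 0.23), STC2 (2.20 ± 0.10), DDIT3 (2.11 ± 0.18), CXCL5 (1.16 ± 0.12) and CDKN2C (-1.16 ± 0.11) were close to the differences read directly at 500 µg/mL. Each equals that direct difference minus the difference at 20 µg/mL, in the same fit. The closeness shows only that these genes differed little at 20 µg/mL and is no separate support. SFRP4, a secreted Wnt inhibitor, moved in opposite directions, -0.72 ± 0.09 with Soshiho-tang and 0.52 ± 0.10 with Okbyeongpung-san, a difference of -1.24 ± 0.14 (adjusted p = 1.72e-06, edgeR).

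**Figure D5:**
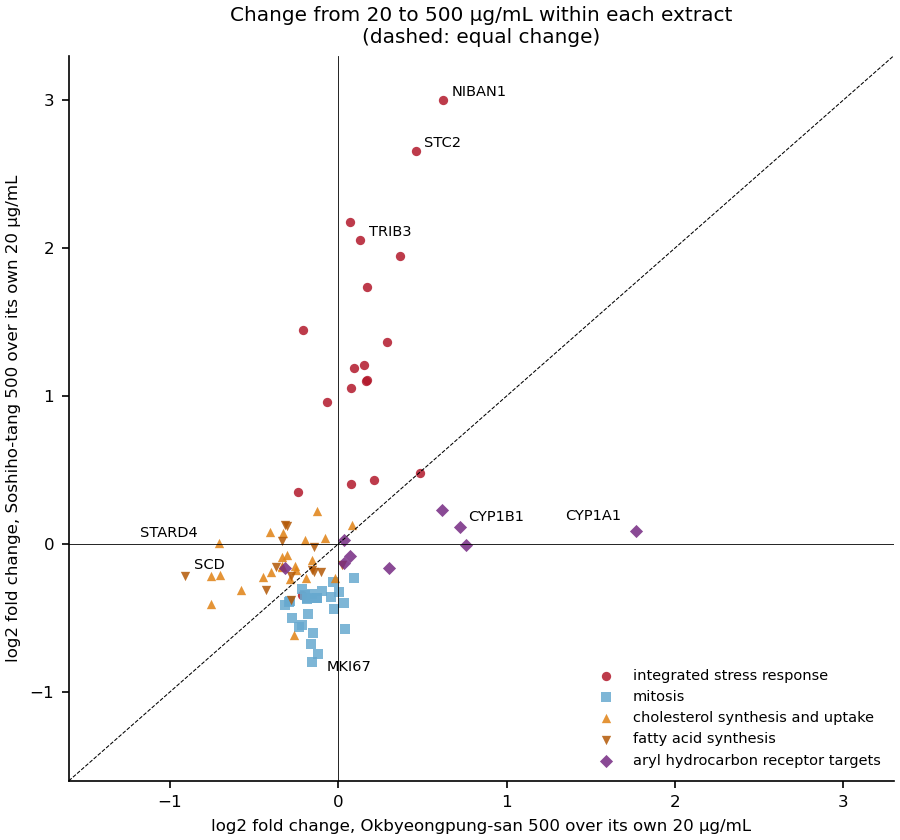
Log2 fold change from 20 to 500 µg/mL within Okbyeongpung-san (horizontal) and within Soshiho-tang (vertical) for members of 5 gene lists, with a dashed line where the changes are equal. Integrated stress response genes rise along the Soshiho-tang axis, NIBAN1 by 3.00, while CYP1A1 lies out along the Okbyeongpung-san axis at 1.77 and SCD at -0.91.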

How the data were processed

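RNA sequencing libraries of A549 cells treated for 24 h are given by the authors in a deposited table of RSEM expected counts per gene. Named in the submitters' processing notes are STAR 2.7.3a, RSEM 1.3.3, FastQC 0.11.9 and Trim Galore 0.6.5, and the hg38 (GRCh38) build; the annotation release and the strand setting are not given in the sources used here. The table held 60675 gene identifiers and 30 further columns without values, which were not used. Between 9.09% and 11.6% of a library's values were not whole (tolerance 1e-09), so the expected counts were rounded before testing. Library totals ran from 19833106 to 38008449.

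All 10 replicated groups (27 libraries, Yijin-tang included for the spread) entered 1 edgeR 4.0.16 fit (R 4.3.3, TMM, filterByExpr with a minimum count of 10, group means only), with a biological coefficient of variation of 6.89% and 17 residual degrees of freedom. The lone sample left when an Okbyeongpung-san library was dropped was assumed to vary like the other groups. P-values were adjusted by Benjamini-Hochberg over all 17459 genes, and the standard error is the log2 fold change over the square root of F. The procedure was tested on simulated data. DESeq2 1.42.0 and other settings served as alternatives.

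Gene names, coordinates and lengths came from GENCODE 29 (57055 identifiers matched), and promoter windows from RefSeq. Named genes were the 12 higher and 12 lower with the largest fold change among called genes without overlap between the groups and with mean log2 CPM from 2 upward, up to 4 called members per list, a fixed set of stress, cell cycle, lipid and xenobiotic genes, and up to 5 each way in the other comparisons; further list members are given as examples, chosen after their values were seen. The comparison and the 38 gene lists were chosen with earlier results of these data known. Some genes that meet the rule are not reported here. Soyo-san, with 1 library per dose, stayed out.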

Additional observations from a re-analysis of the deposited data

Results flagged for a closer look

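The change from 20 to 500 µg/mL differed between Soshiho-tang and Okbyeongpung-san for 1224 of 17459 genes (edgeR, adjusted p under 0.05 for the difference itself), and 244 of the higher and 169 of the lower ones were also called with either Okbyeongpung-san 500 library left out. Soshiho-tang minus Okbyeongpung-san, the difference was 2.38 for NIBAN1 and -1.68 for CYP1A1 on the log2 scale.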

How the results depend on the processing

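Counts at 500 µg/mL (3263) stayed within 1.5 times under DESeq2, RLE factors, a batch term, other low-count filters, no mitochondrial genes, and a length and GC offset chosen after seeing the data. They moved to 5134 with batch E alone, which leaves Okbyeongpung-san replicate 2 only, and to 608 with only the 5 libraries, and leaving out single libraries gave 1235 (without Okbyeongpung-san 500 replicate 2) to 5406 (without replicate 3). The 1224 genes of the dose difference ranged from 512 (without Okbyeongpung-san 500 replicate 2) to 3586 (without replicate 3), with 743 and 536 without Okbyeongpung-san 20 replicates 2 and 3 and 788 without Soshiho-tang 20 replicate 2. The cause was not tested. At 100 µg/mL the 0 calls became 3 with DESeq2 and 110 without a low-count filter, and at 20 µg/mL the 3 calls became 94 without that filter and 1 to 3 with a library left out (1 without Okbyeongpung-san 20 replicate 3); leaving a library out at 100 µg/mL gave 0 calls. With single libraries left out, MT-ATP8 ranged from -1.82 (without Okbyeongpung-san 500 replicate 3) to 0.35 (without replicate 2) and MT-ND6 from -1.19 to 0.19, reversing without replicate 2. Over all settings, the named genes' values at 500 µg/mL kept direction and call in 1910 cases, lost the call in 168 and gained it in 9. These totals pool mild and severe settings. In the fit of only the 5 libraries 90 named genes kept direction and call and 50 lost the call. The fit without Okbyeongpung-san 500 replicate 2 lost the next most, whereas under RLE factors all 140 kept theirs. Deviations from the group means correlated little between the extracts for any pair of replicate numbers (-0.0552 to 0.0552). With 2 Okbyeongpung-san libraries per dose these deviations mirror each other, so the check says little about pairing. With the replicate block the counts were 3516, 1452, 0 and 4. Low counts limit CYP1A1, CXCL8 and CA9.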

Other observations

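Genes outside the lists, chosen after their values were seen, also separated the extracts at 500 µg/mL and were called in the same direction with either Okbyeongpung-san library left out. ADM2, a peptide of the calcitonin family, read 8.74, 10.5 and 9.67 CPM with Soshiho-tang and 2.55 and 1.79 CPM with Okbyeongpung-san (log2 2.13 ± 0.16, adjusted p = 6.98e-10, edgeR). ULBP1, a stress ligand for the NKG2D receptor of natural killer cells, gave 9.21, 9.7 and 11.01 against 3.14 and 3.52 CPM, and CSF2RA, a receptor chain for GM-CSF, 5.28, 6.31 and 4.62 against 2.12 and 1.93 CPM. ERN1, which encodes the unfolded protein sensor IRE1, was 0.93 ± 0.09 higher, ETS1, a transcription factor, 0.91 ± 0.08, and GADD45A, a growth arrest gene, 1.15 ± 0.09. XDH, xanthine dehydrogenase, was at 2.84, 2.75 and 3.24 against 1.07 and 1.12 CPM and FUT1, a fucosyltransferase of blood group antigens, at 1.204, 1.45 and 1.305 against 0.188 and 0.246 CPM.

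Lower with Soshiho-tang were IGFBP3, which binds insulin-like growth factors, at 93.5, 96.2 and 107 against 171 and 163 CPM, and GPX2, a glutathione peroxidase, at 109.6, 103 and 141 against 229.8 and 192 CPM. The C/EBP family members CEBPA (-0.77 ± 0.12) and CEBPD (-0.83 ± 0.13) were lower, while CEBPG (0.97), a dimer partner of ATF4, was higher. AXIN2 (-0.94 ± 0.16) and RNF43 (-0.82 ± 0.16), both feedback inhibitors of Wnt signalling, and FGFR3 (-0.94 ± 0.11), a fibroblast growth factor receptor, were lower as well.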
